A study of Rattus norvegicus with 138 samples.

Results

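miR-122 is the miRNA most abundant in hepatocytes, and it was followed here in rat serum through its mature strands miR-122-5p and miR-122-3p, which are 2 of the 471 rows of a table of mature miRNA counts in small RNA libraries. The rows were taken by name. Each library came from serum of a male Sprague-Dawley rat that had been implanted at 3 months of age with metal pellets of 1 mm diameter and 2 mm length, 2 in each gastrocnemius muscle and 4 per rat. The implanted metal was aluminium (Al), cobalt (Co), copper (Cu), depleted uranium (DU), iron (Fe), lead (Pb), nickel (Ni), tungsten (W) or, in the control rats, tantalum (Ta). Tantalum pellets served as the control for the surgery, so the control rats carried pellets too and no group without an implant was analysed here. Serum was taken 1, 3, 6 and 12 months after implantation, which gave 35 groups of metal and month. Of these, 33 had 4 libraries each, W and Ta at 6 mo had 3 each, and Ni had none at 12 mo.

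The gene Mir122 is transcribed in hepatocytes as a long primary transcript that is cut to a hairpin and then to a duplex. The 5p strand of this duplex is loaded into Argonaute and is the guide, while most of the 3p strand, the passenger, is degraded. In the liver miR-122 represses genes of lipid and cholesterol metabolism and helps to hold hepatocytes in the differentiated state. miR-122 leaves hepatocytes in vesicles and protein complexes and when the cells are injured, and for that reason it is used as a serum marker of the liver.

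The sequences of both strands and of the hairpin are printed because all counts below are counts of reads given to these short sequences, with the seed (bases 2 to 8) of each mature strand in capitals and, in the hairpin, the strands themselves in capitals. They are RefSeq's, on the assembly GRCr8, and lie on the plus strand of chromosome 18: miR-122-5p at chr18:61028831-61028852, miR-122-3p at chr18:61028867-61028885 and the hairpin at chr18:61028817-61028901.
miR-122-5p: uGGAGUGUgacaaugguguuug
miR-122-3p: aACGCCAUcaucacacuaa
Mir122 hairpin: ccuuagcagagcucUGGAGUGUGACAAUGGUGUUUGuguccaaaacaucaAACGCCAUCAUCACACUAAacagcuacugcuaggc
The hairpin has 85 bases, in which miR-122-5p (22 bases) takes positions 15 to 36 and miR-122-3p (19 bases) positions 51 to 69. The seeds GGAGUGU and ACGCCAU differ from each other, and no other mature rat miRNA in the RefSeq table has either of them (0 other miRNAs each). The hairpin lies within the transcribed pseudogene LOC134482951, and a second miRNA gene, Mir3591, overlaps it. Whether the counting used the strand of the reads is not given in the sources used here, and Mir3591 products were not analysed here.

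Library totals ran from 518 to 6406599 counts with a median of 685384, and 6 libraries had fewer than 20000 counts. Depth moved with the month: in order of month, the median total was 1114449, 286094, 1302182.5 and 558752.5 counts and the median number of miRNAs detected was 216, 99.5, 170 and 186.5. The labels do not say which of the 8 rats of a group were sequenced, or whether libraries of different months came from the same rats, so each p measures the spread between libraries. The age of the rats and the time since implantation cannot be told apart in this design. In serum, release from more cells and more release from each cell cannot be told apart either.

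miR-122-5p was among the most abundant miRNAs of this serum. It was counted in every library and had 7777285 counts in all, which is 5.34% of all counts and the rank 4 among all miRNAs, after miR-191a-5p (22.9%), miR-10a-5p (16.2%) and miR-10b-5p (6.93%). Its share of a library ran from 0.123% in DU replicate 3 at 1 mo, where its rank was 45, to 34.2% in Al replicate 4 at 12 mo, where it was the most abundant miRNA. For the first of these libraries the 95% binomial interval (Wilson, counting error only) was 0.119% to 0.128%, and for the second it was 34.0% to 34.4%.

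The median share of miR-122-5p was lowest at 1 mo and highest at 12 mo. At 1 mo the lowest, median and highest shares over 36 libraries were 0.123%, 1.77% and 7.89%. At 3 mo they were 0.202%, 5.35% and 32.4% over 36 libraries, and at 6 mo 0.434%, 4.29% and 31.6% over 34 libraries. At 12 mo they were 0.397%, 12.5% and 34.2% over 32 libraries. miR-122-5p was the most abundant miRNA of the library in 0 of 36, 7 of 36, 4 of 34 and 12 of 32 libraries in order of month, and it was among the first 5 in 3, 16, 16 and 29 libraries.

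**Figure D1:**
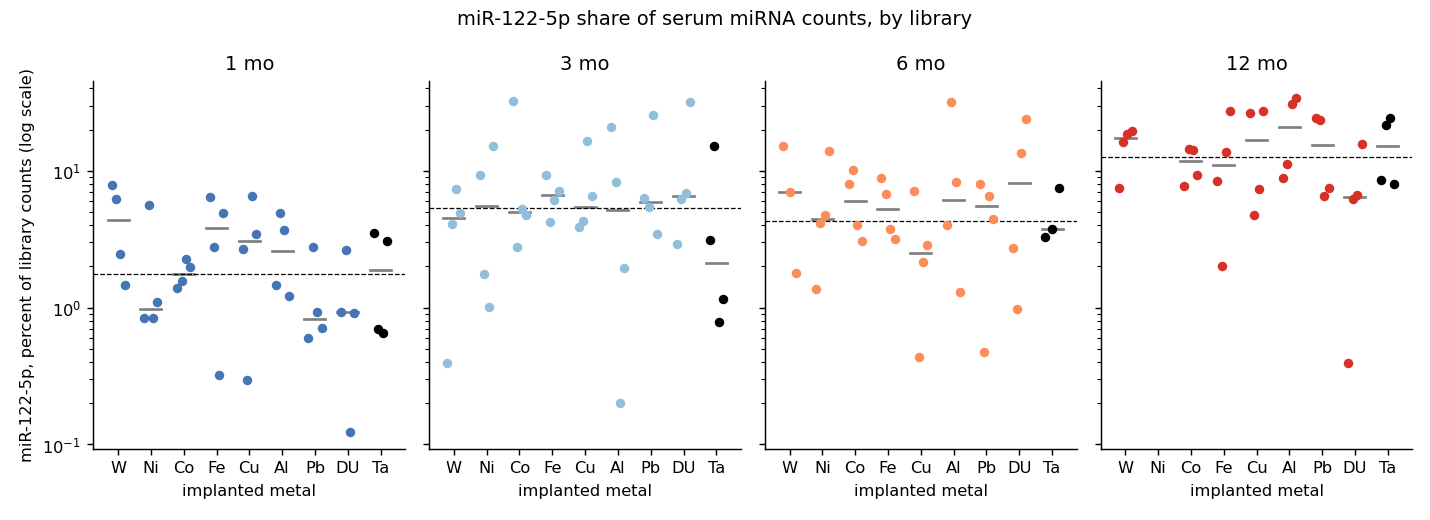
Share of miR-122-5p in the counts of each library (percent, log scale) by implanted metal, in 4 panels by month after implantation. Dots are libraries (Ta in black), short grey bars are group medians and the dashed line is the median over all libraries of the month, which is 1.77% at 1 mo and 12.5% at 12 mo; libraries run from 0.123% to 7.89% at 1 mo and from 0.397% to 34.2% at 12 mo.

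For comparisons, counts were scaled to a common library size (CPM) with TMM factors, which correct for a few abundant miRNAs taking up a library. Scaled CPM of miR-122-5p had medians of 19369, 42424, 45419 and 132216 in order of month, so the median at 12 mo was 6.83-fold that at 1 mo. Of the 32 libraries at 12 mo, 25 were above the highest of the 36 libraries at 1 mo, and 31 were above the median of the 1 mo libraries. The exception was DU replicate 1 at 12 mo, with 10447 CPM. Other miRNAs were not counted in this way, so these counts describe miR-122-5p alone.

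In the model over all libraries (edgeR's quasi-likelihood test, Benjamini-Hochberg adjustment over 320 miRNAs, calls at an adjusted p under 0.05), miR-122-5p rose between 1 and 12 mo by 2.53 ± 0.31 on the log2 scale (SE; adjusted p = 1.01e-10; 95% interval 1.92 to 3.14; mean over the 8 metals sampled at all months, Ta among them). Its unadjusted p was the smallest of the 320 miRNAs. In this comparison 15 of 320 miRNAs rose, which is 4.69% (6.94% of the 216 that could be fitted), and the median over the miRNAs that could be fitted was -0.17. On this scaling the rise came in steps. Against 1 mo the log2 difference of miR-122-5p was already 1.16 ± 0.30 at 3 mo (edgeR adjusted p = 0.000639, where 8.12% of miRNAs rose, 12.7% of those fitted) and 1.36 ± 0.30 at 6 mo (adjusted p = 0.00079, where 1.88% rose, 2.96% of those fitted). Levels at 6 mo and 3 mo were not told apart by the test, with a log2 difference of 0.20 ± 0.30 (edgeR adjusted p = 1.0; 95% interval -0.39 to 0.79). At 12 mo the level was above that at 3 mo by 1.37 ± 0.30 (adjusted p = 0.000118, where 24.1% of miRNAs rose, 41.6% of those fitted) and above that at 6 mo by 1.17 ± 0.31 (adjusted p = 0.00465, where 7.81% rose, 13.4% of those fitted). The last of these calls was lost when all libraries with replicate number 2, 3 or 4 were left out (adjusted p = 0.065, 0.139 and 0.0594), and that at 3 mo against 1 mo was lost without replicate number 1 (adjusted p = 0.0747). The whole table moved between these months too. The median log2 difference over all fitted miRNAs was -1.47 for 3 against 1 mo and -0.50 for 6 against 1 mo. It was 0.47 for 6 against 3 mo, 0.92 for 12 against 3 mo and 0.26 for 12 against 6 mo. The steps of miR-122-5p are to be read beside these shifts.

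How libraries are scaled moves all miRNAs of these comparisons together. With RLE size factors in place of TMM, the log2 differences of all miRNAs shifted by a median of 0.10 for 12 against 1 mo, 0.37 for 3 against 1 mo and -0.27 for 12 against 3 mo. The difference of miR-122-5p was then 2.72 for 12 against 1 mo, beside a median of -0.07 for all miRNAs, and it stayed called, as did 1.75 for 3 against 1 mo and 0.98 for 12 against 3 mo. The 3 mo libraries, which were the shallowest and held the fewest miRNAs, carried the largest shifts.

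Ratios within a library do not depend on scaling, and they showed the same order between 1 and 12 mo. The ratio of miR-122-5p to miR-192-5p, an abundant miRNA of liver and gut, had medians of 0.581, 1.73, 1.17 and 2.60 in order of month, and miR-122-5p had the higher count in 9 of 36, 27 of 36, 20 of 34 and 24 of 32 libraries. Against miR-92a-3p, an abundant miRNA of blood cells, the median ratio was 2.49, 4.74, 6.55 and 14.0 at these months. Against miR-191a-5p, which takes the largest share of the table, it was 0.0708, 1.47, 0.291 and 1.57. miR-191a-5p itself fell between 1 and 12 mo by 1.34 ± 0.30 on the log2 scale (edgeR adjusted p = 0.000785), and its median share was 22.3%, 4.87%, 16.6% and 10.3% at the 4 months. With miR-191a-5p taken out of the totals, the median share of miR-122-5p was 2.43%, 5.63%, 5.76% and 15.3% in order of month.

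In the Ta rats the level was also highest at 12 mo. Their libraries had 25784, 5295, 8564 and 55628 CPM of miR-122-5p at 1 mo, 19333, 130637, 15545 and 7602 CPM at 3 mo, 38998, 57318 and 54883 CPM at 6 mo, and 92289, 202748, 192346 and 76926 CPM at 12 mo. All 4 libraries at 12 mo were above all 4 at 1 mo, while 1 library at 3 mo, replicate 2, stood well above the other 3. Fitted alone, the Ta libraries had a log2 difference of 2.17 between 12 and 1 mo, which did not pass (edgeR adjusted p = 0.28 over 199 miRNAs, 15 libraries in all). Depth and the number of miRNAs detected, given above, moved with the month too, and their part in the rise was not tested.

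The mean at 12 mo was above that at 1 mo in each of the 8 metals with both months, by 1.95 (Fe) to 3.32 (Pb) on the log2 scale. Within single metals none of these 8 differences passed the threshold after adjustment (edgeR adjusted p = 0.0635 to 0.932), although the unadjusted p was 0.000397 to 0.0257. The share of all miRNAs that rose within a metal was 0.938% for W and 0% for each of the other 7. In Pb rats the 12 mo libraries had 254299, 285469, 47003 and 42068 CPM, against 9115, 33595, 10408 and 10052 CPM at 1 mo. In Al rats they had 131265, 187866, 307498 and 296010 CPM at 12 mo, against 15241, 39776, 56943.5 and 22469 CPM at 1 mo. In neither metal did the months overlap, and the same held for W, Co and Ta.

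In Fe, Cu and DU rats the months overlapped. Fe libraries had 102386, 31379, 145432 and 292082 CPM at 12 mo, against 56996, 23382, 6100 and 61554 CPM at 1 mo. The overlap in DU rats came from replicate 1 at 12 mo, which had 10447 CPM beside 93304, 68899 and 185076 CPM in the other 3, against 13572, 36253, 1811 and 13617 CPM at 1 mo.

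**Figure D2:**
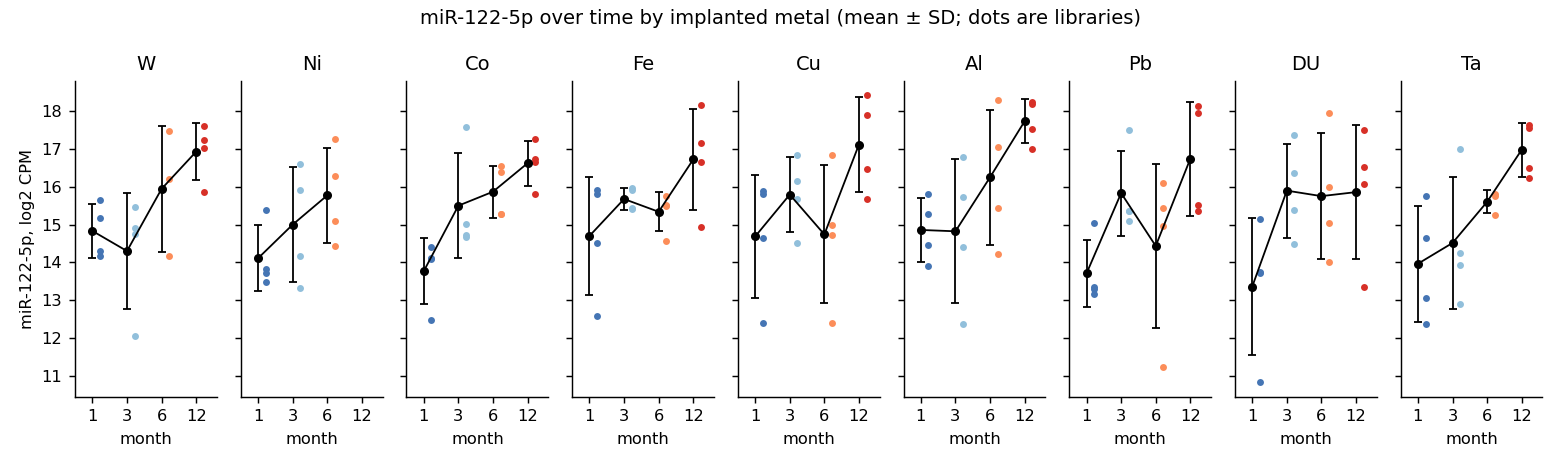
miR-122-5p in log2 CPM (vertical axis, TMM factors, prior count 2) at 1, 3, 6 and 12 months for each implanted metal, Ta in the last panel. Black points and bars are means ± SD of the group and coloured dots its libraries; in all 8 metals with both months the mean at 12 mo is above that at 1 mo.

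Group levels are given as mean ± SD of log2 CPM. At 1 mo the group means were Al 14.86 ± 0.85, Co 13.77 ± 0.87, Cu 14.68 ± 1.62, DU 13.36 ± 1.82, Fe 14.70 ± 1.55, Pb 13.71 ± 0.89, Ni 14.11 ± 0.87, W 14.83 ± 0.71 and Ta 13.96 ± 1.53. At 3 mo the group means were Al 14.82 ± 1.90, Co 15.50 ± 1.39, Cu 15.79 ± 0.98, DU 15.90 ± 1.24, Fe 15.68 ± 0.30, Pb 15.83 ± 1.12, Ni 15 ± 1.52, W 14.30 ± 1.53 and Ta 14.51 ± 1.75. Ta was above Co, DU and Pb at 1 mo and above W alone at 3 mo.

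At 6 mo the group means were Al 16.25 ± 1.79, Co 15.87 ± 0.69, Cu 14.74 ± 1.83, DU 15.75 ± 1.67, Fe 15.34 ± 0.52, Pb 14.43 ± 2.18, Ni 15.77 ± 1.26, W 15.94 ± 1.66 and Ta 15.60 ± 0.30. At 12 mo the group means were Al 17.73 ± 0.58, Co 16.62 ± 0.60, Cu 17.11 ± 1.26, DU 15.86 ± 1.77, Fe 16.72 ± 1.35, Pb 16.74 ± 1.5, W 16.93 ± 0.75 and Ta 16.98 ± 0.72. Placed in order of level, 7 of the 8 highest of the 35 groups were 12 mo groups and 7 of the 10 lowest were 1 mo groups. In none of the 34 pairs of neighbours in this order was the gap larger than the SD within the pair, and the largest gap was 0.62 beside a median SD of 1.26 within a group.

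Across the 132 libraries with at least 20000 counts, the month accounted for 0.346 of the variance of log2 CPM of miR-122-5p, against a median of 0.103 over 320 miRNAs, which placed it at rank 13. Among the 50 most abundant miRNAs, whose median was 0.236, it was at rank 7. The implanted metal accounted for 0.0462, against a median of 0.0602, at rank 223, and a median of 0.0669 among the 50 most abundant. These shares are a description of these libraries.

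Whether any metal shifted miR-122-5p relative to Ta was asked in 31 comparisons at single months. None of the 31 differences passed the threshold, none had an unadjusted p under 0.05 (edgeR; 0 of 31), and DESeq2 also called 0 of 31. Over these comparisons edgeR called 14 of 7240 tests, which is 0.193%, and DESeq2 called 3.74%. By the sign of the edgeR difference the metal was above Ta in 21 of 31 comparisons. All comparisons of a month share the same Ta libraries, so these are not 31 independent signs. Standard errors ran from 0.75 to 1.02 on the log2 scale, so that differences of this order could not be told from none at this number of libraries.

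At 1 mo the differences from Ta ran from -0.54 in Co to 0.90 in Fe. Fe libraries had 56996, 23382, 6100 and 61554 CPM, against 25784, 5295, 8564 and 55628 CPM in Ta, and the groups overlapped. On leaving out 1 library the Fe difference ran from 0.36 (without Fe replicate 1) to 1.62 (without Ta replicate 4), and that of Co from -0.86 (without Ta replicate 2) to 0.34 (without Ta replicate 4). At 3 mo they ran from -0.39 in W to 1.37 in Co, where the Co libraries had 194491, 26238, 27236 and 33072 CPM, against 19333, 130637, 15545 and 7602 CPM in Ta. Both groups at 3 mo thus held 1 library far above the rest. Without Co replicate 1 the difference of Co was -0.45. Without Ta replicate 2 that of W was 0.94, and 4 metals had an unadjusted p under 0.05: Co at 2.90, DU at 2.81, Pb at 2.64 and Cu at 2.35. None of these passed after adjustment (edgeR adjusted p = 0.142 for Co, 0.316 for DU, 0.505 for Pb and 0.662 for Cu), and the size of the differences of this month depends on this 1 control library.

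At 6 mo the differences ran from -0.27 in Pb to 1.60 in Al, which was the largest of the 31 (95% interval -0.33 to 3.54). The Al libraries had 44513, 320209, 136641 and 18937 CPM, against 38998, 57318 and 54883 CPM in Ta, so 2 Al libraries were above all of Ta and 1 was below all of it. Without Al replicate 2, the highest of them, the difference was 0.36 in place of 1.60. That of Pb ran from -0.90 to -0.08 on leaving out 1 library. With RLE size factors the Pb difference at 6 mo was 0.47 in place of -0.27. At 12 mo they ran from -0.87 in DU to 0.71 in Al. The DU libraries had 10447, 93304, 68899 and 185076 CPM, against 92289, 202748, 192346 and 76926 CPM in Ta, and DU was the lowest group of that month. Without Ta replicate 2 the DU difference was -0.07, and over all libraries left out in turn it ran from -1.02 to -0.07, while that of Al ran from 0.42 to 0.98.

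**Figure D3:**
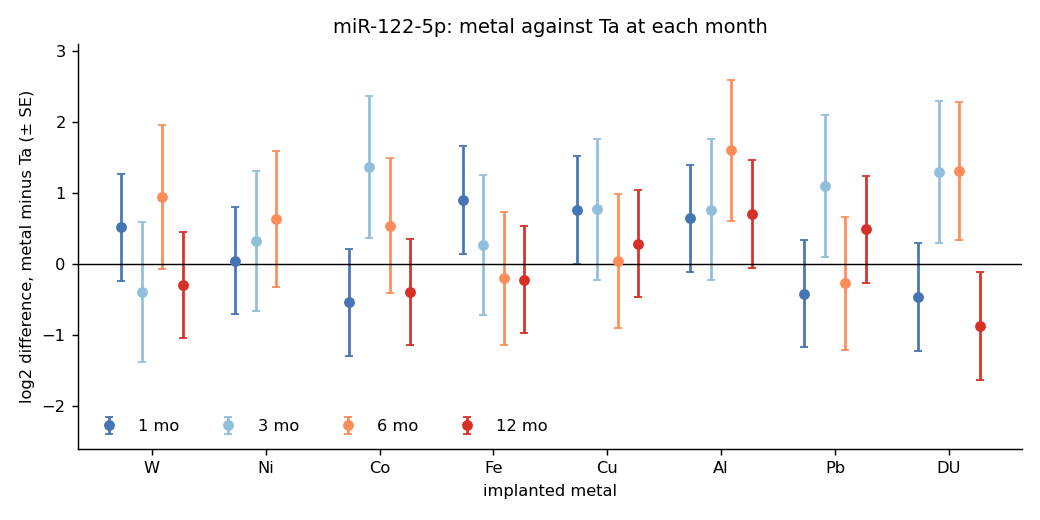
Log2 difference of miR-122-5p, metal minus Ta (vertical axis; points with bars of ± 1 SE from edgeR), for 8 metals and the months in colour. The points lie between -0.87 (DU at 12 mo) and 1.60 (Al at 6 mo), and most bars cross 0.

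Averaged over months, no metal's difference from Ta passed (edgeR, 0 of 8, 0 with an unadjusted p under 0.05). DESeq2 also called 0 of 8. The averaged differences ran from -0.02 ± 0.43 in Pb to 0.68 ± 0.43 in Al (SE; unadjusted p = 0.113, adjusted p = 1.0 by edgeR for Al), while 1.09% of all tests of this kind were called. The 95% interval for Al was -0.16 to 1.52 and that for Pb -0.85 to 0.82, so a change of up to about these sizes was not shown to be absent. By the sign of the edgeR difference, Al and Cu were above Ta at 4 of 4 months and Ni at 3 of 3. The other 5 metals were above it at 2 of 4 months each. For Cu at 6 mo this difference was 0.05 ± 0.94, and its mean log2 CPM was below that of Ta (14.74 against 15.60). Pb at 12 mo was also above Ta by the edgeR difference and below it by mean log2 CPM (16.74 against 16.98). For no metal did the test of a change of this difference with time pass (edgeR, 0 of 8, unadjusted p from 0.403 to 0.915), where 1.64% of all such tests were called.

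miR-122-5p was compared with other miRNAs of liver and bile duct cells from a list of 14 names, of which 12 were not miR-122 itself. Of these 12, 11 were in the table, 8 passed the filter on low counts and 7 could be fitted for 12 against 1 mo. Of the 7, 3 rose and 0 fell, beside 6.94% of all fitted miRNAs that rose and 10.2% that fell. The members with the largest rises were sparse at the earlier months, as given below, which limits what this count can show. Their median log2 difference was 1.75, beside -0.17 for all miRNAs that could be fitted, and with RLE size factors it was 1.20 beside -0.07.

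The members that rose were miR-802-5p by 4.33 ± 0.97 (adjusted p = 0.000897), miR-193a-5p by 3.73 ± 0.85 (adjusted p = 0.00121) and miR-194-5p by 1.83 ± 0.63 (adjusted p = 0.041; edgeR, log2 scale). miR-194-5p is cut from the same transcripts as miR-192 and was counted in 110 libraries, while miR-802-5p and miR-193a-5p were sparse, in 42 and 38 libraries. miR-802-5p was detected in 9 of 36, 4 of 36, 12 of 34 and 17 of 32 libraries in order of month. For miR-193a-5p these were 9, 4, 7 and 18 libraries. Both had a median CPM of 0 at 1, 3 and 6 mo, and of 12.4 and 7.34 at 12 mo. Neither could be fitted for 3 against 1 mo or 6 against 1 mo. The size of their differences thus rests on groups with few or no counts. miR-194-5p had already risen by 2.67 at 3 mo and by 2.42 at 6 mo against 1 mo (edgeR adjusted p = 0.000305 and 0.00491). Its differences for 12 against 3 mo and 12 against 6 mo were -0.84 and -0.59, which did not pass. miR-192-5p, the most abundant of the list after miR-122-5p, had a difference of 0.49 ± 0.23 that did not pass (edgeR adjusted p = 0.169). miR-365-3p had 1.75 ± 0.80 (adjusted p = 0.155), miR-148a-3p -0.11 and miR-101a-3p -0.23, which did not pass either. Without the libraries under 20000 counts, and in an additive model of metal and time, the list had 2 calls in place of 3, as miR-194-5p was not called. DESeq2 also made 3 calls, but not for the same members: miR-194-5p and miR-802-5p again, miR-192-5p at 0.61 (adjusted p = 0.0219), and not miR-193a-5p (adjusted p = 0.11). For 12 against 3 mo 4 of 7 fitted members rose, beside 41.6% of all fitted miRNAs, and for 12 against 6 mo 3 of 7, beside 13.4%. For 3 against 1 mo 1 of 4 rose, beside 12.7%, and 2 fell, beside 55.6%. For 6 against 1 mo 1 of 4 rose, beside 2.96%, and 0 fell, beside 19.7%. Against Ta, averaged over months, 0 members of the list were called for each of the 8 metals.

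**Figure D4:**
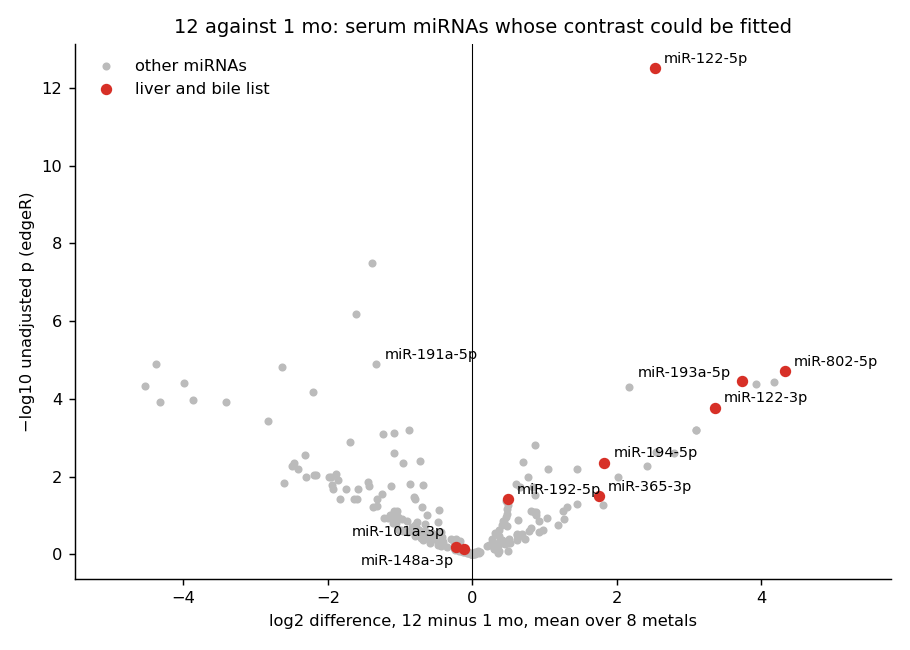
Log2 difference between 12 and 1 mo (horizontal axis, mean over 8 metals) against the −log10 of the unadjusted edgeR p for each miRNA whose contrast could be fitted. miR-122 and the other miRNAs of the liver and bile list are in red; miR-122-5p, at 2.53, has the smallest p of all, and miR-191a-5p lies on the side that fell.

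Markers of blood cells and of the implanted muscle were set beside these values. The summed share of the red cell list (5 of 6 in the table) had medians of 0.873%, 2.36%, 0.939% and 1.33% of counts at 1, 3, 6 and 12 mo, with ranges of 0.258% to 3.04%, 0% to 37.8%, 0.259% to 8.36% and 0.244% to 2.87%. For 12 against 1 mo, 0 of its 5 members rose and 0 fell, beside 6.94% and 10.2% of all fitted miRNAs. The platelet and leukocyte list, which holds miR-191a-5p, had medians of 23.2%, 5.97%, 16.9% and 10.8%, and 1 of its 5 fitted members, miR-191a-5p, fell. The skeletal muscle list had medians of 0.0366%, 0.175%, 0.112% and 0.0974%, and 0 of its 2 fitted members passed for 12 against 1 mo, miR-206-3p at 1.45 ± 0.52 (edgeR adjusted p = 0.0517) and miR-1-3p at 1.30 ± 0.69 (adjusted p = 0.247). Between earlier months markers of these cells rose as well. For 3 against 1 mo the leukocyte miRNA miR-223-3p rose by 2.75 ± 0.41 (edgeR adjusted p = 2.51e-08), the red cell miRNA miR-451-5p by 1.97 ± 0.36 (adjusted p = 3.47e-06), and the muscle miRNAs miR-1-3p by 2.76 ± 0.73 (adjusted p = 0.00081) and miR-206-3p by 1.86 ± 0.53 (adjusted p = 0.002). Each of these differences was larger in value than the 1.16 of miR-122-5p, and the difference between them was not tested. In the same comparison 1 of 5 red cell members, 2 of 5 platelet and leukocyte members and 0 of 2 muscle members fell. Of all fitted miRNAs 12.7% rose and 55.6% fell there, so these falls are not particular to the lists. For 6 against 1 mo miR-206-3p rose by 1.46 ± 0.53 (adjusted p = 0.046), 1 red cell member fell and no platelet or leukocyte member passed. Of all fitted miRNAs 2.96% rose and 19.7% fell between these months. Of the 4 lists only miR-486 and miR-215 have no row of that name, and no listed row was at 0 throughout. The part of these cell types in the miR-122-5p values was not tested. The summed share of the liver list without miR-122 had medians of 3.80%, 3.97%, 4.01% and 6.25%.

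The miRNAs whose level followed miR-122-5p most closely were looked up over the 132 libraries of at least 20000 counts, as a description of libraries that share depth and composition. Over all of them the highest Spearman rho of log2 CPM were 0.569 for miR-101b-3p, 0.41 for miR-182, 0.394 for miR-802-5p, 0.365 for miR-30a-3p and 0.358 for miR-122-3p, beside a median of -0.06 over 319 miRNAs. Pearson r for the same 5 was 0.293, 0.198, 0.429, 0.141 and 0.372. After the mean of each metal and month was subtracted, the first 5 were miR-30a-5p (rho 0.373), miR-802-5p (0.356), miR-378a-3p (0.316), miR-194-5p (0.302) and miR-101b-3p (0.293), with miR-122-3p at rank 6 (0.285) and miR-192-5p at rank 7 (0.282). Pearson r for those 5 was 0.388, 0.377, 0.283, 0.185 and 0.175. miR-802-5p and miR-101b-3p stood among the first 5 in both orders. miR-191a-5p had the lowest of the 319 values after this subtraction, with a rho of -0.33.

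The 3p strand was rare beside the 5p strand. miR-122-3p was counted in 74 libraries, against 64 without a count of it, and had 8148 counts in all, which is 0.105% of the counts of both strands, and it passed the filter on low counts at each month. In order of month it was detected in 21 of 36, 9 of 36, 20 of 34 and 24 of 32 libraries. Where it was detected, its lowest counts in these months were 2, 4, 12 and 11 and its highest 196, 316, 808 and 623. Over all counts of a month, its share of miR-122 was 0.0904%, 0.142%, 0.0823% and 0.117%. The fewest libraries with the strand were thus at 3 mo, where its pooled share was the highest.

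Many libraries had no count of the strand beside many of miR-122-5p. Of the 64 libraries with no count of miR-122-3p, 34 had enough miR-122-5p counts that the share over all libraries would give at least 20 counts. The extreme was DU replicate 4 at 6 mo, with 328044 counts of miR-122-5p and 0 of miR-122-3p, where that share would give 343. At the other end, Cu replicate 1 at 3 mo had 185 counts of miR-122-3p beside 5381 of miR-122-5p (3.32%), and Ta replicate 1 at 1 mo had 196 beside 13367 (1.45%). No molecular identifiers are named in the sources used here, so intervals and limits from these counts cover counting error only.

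**Figure D5:**
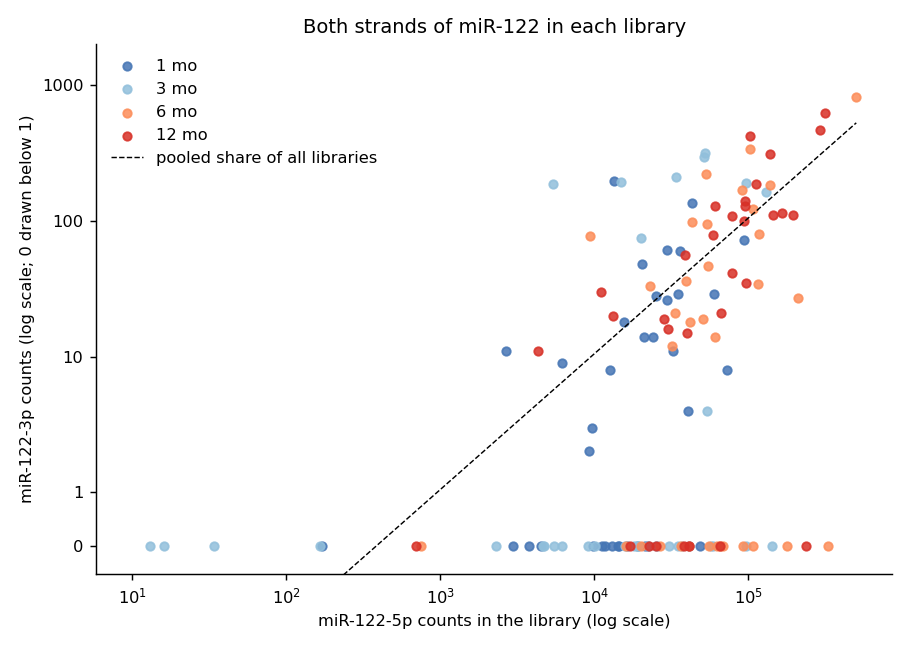
Counts of miR-122-3p (vertical axis, log scale, 0 drawn below 1) against counts of miR-122-5p (horizontal axis, log scale) in each library, coloured by month. The dashed line is the share over all libraries, 0.105%; 64 libraries lie at 0, among them several with more than 100000 counts of miR-122-5p.

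For miR-122-3p the differences between months had larger errors than for miR-122-5p, and which of them passed depended on the setting. For 12 against 1 mo its log2 difference was 3.36 ± 0.87 (edgeR adjusted p = 0.003) and for 12 against 6 mo 2.68 ± 0.89 (adjusted p = 0.0367), while 12 against 3 mo, at 1.63 ± 0.85, did not pass (adjusted p = 0.157). The other 3 pairs of months could not be fitted for this strand. It had no count in any library of Pb at 1 mo, Fe at 3 mo and Pb at 6 mo, so each of these pairs held such a group at both months. The pairs with 12 mo held such a group at the earlier month. Differences that involve such groups depend on the prior count of the model. Within Pb the log2 difference for 12 against 1 mo was 9.14 ± 3.15, while in the other metals it ran from 0.86 (Ta) to 3.47 (Co). An additive model, with 1 term for each metal and month, gave 2.58 ± 0.86 for 12 against 1 mo (edgeR adjusted p = 0.0315, where 12.5% of miRNAs were called), 2.13 ± 0.92 for 3 against 1 mo (adjusted p = 0.0451, where 48.8% were called) and 1.66 ± 0.89 for 12 against 6 mo (adjusted p = 0.283, where 10.3% were called). The call for 12 against 6 mo was also lost with RLE size factors (adjusted p = 0.0508), without the libraries under 20000 counts (adjusted p = 0.0611) and without replicate number 3 or 4 (adjusted p = 0.176 and 0.358). That for 12 against 3 mo was gained with DESeq2 (3.37, adjusted p = 0.000762) and without replicate number 1 or 2 (4.22 and 4.92, edgeR adjusted p = 0.00148 and 0.000315). In the model with 1 mean per metal and month, 4.69% of miRNAs rose for 12 against 1 mo and 7.81% for 12 against 6 mo (6.94% and 13.4% of those fitted). In Ta libraries alone the difference between 12 and 1 mo was 0.48 (adjusted p = 0.996).

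Against Ta at single months, miR-122-3p passed in 0 of 31 comparisons by edgeR, with 3 at an unadjusted p under 0.05. DESeq2 called 3 of 31, where it called 3.74% of all tests in these comparisons. The 3 with the low unadjusted p in edgeR were those in which the metal group had no count at all: Pb at 1 mo, Fe at 3 mo and Pb at 6 mo. At 1 mo the Pb libraries had 0 counts of miR-122-3p beside 60767 of miR-122-5p (upper end of the Wilson interval of the share 0.00632%). Ta had 199 counts of the strand at 1 mo, of which 196 were in replicate 1. At 6 mo the Pb libraries had 0 counts beside 108423 (upper end 0.00354%), against 18, 19 and 94 counts in the 3 Ta libraries. These Pb libraries held fewer miRNAs, with a mean of 85.75 detected against 196 in Ta. Their median log2 difference from Ta over all fitted miRNAs was -1.24. At 1 mo the mean number detected was 212 in Pb and 182 in Ta. The part of this in the counts of the strand was not tested. At 3 mo the Fe libraries had 0 counts of the strand beside 96886 (upper end 0.00396%), against 316 counts in Ta, all in replicate 2.

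Averaged over months, Pb was the metal in which miR-122-3p was called, at a log2 difference of -4.95 ± 1.35 (edgeR adjusted p = 0.0229, where 4.38% of miRNAs, 7.45% of those fitted, were called for Pb and 1.09% over the 8 metals). It was detected in 4 of 16 Pb libraries, against 10 of 15 Ta libraries. The median log2 difference over all fitted miRNAs was -0.29 in this comparison, and the Pb libraries at 6 mo held few miRNAs, as given above. At 3 mo and 12 mo Pb libraries did hold the strand, with 192 and 75 counts in 2 libraries at 3 mo and 35 and 114 counts in 2 at 12 mo, against 316 counts in 1 Ta library at 3 mo and 16, 110, 311 and 99 counts at 12 mo. With 2 Pb groups at 0, the size of this difference depends on the prior count, and the additive model put it at -2.06 (edgeR adjusted p = 0.398, where 10% were called). The call was also lost without the libraries under 20000 counts (adjusted p = 0.0551). It was lost, or the fit gave no usable estimate, on leaving out any 1 of 11 of the 31 Pb and Ta libraries. For Ta these were replicate 1 at 1 mo (adjusted p = 0.0894), replicates 2 and 4 at 3 mo (no usable estimate for 2, and 0.0663 for 4) and replicate 3 at 6 mo (0.0526). Without replicate 2 the Ta group at 3 mo had no count of the strand. For Pb they were replicates 1, 3 and 4 at 1 mo (0.066, 0.0689 and 0.0751), replicate 4 at 3 mo (0.0582), replicate 1 at 6 mo (0.062) and replicates 2 and 4 at 12 mo (0.0544 and 0.0602). Of the red cell list, 1 of 5 members fell in Pb against Ta in the same averaged comparison, and its part in the strand's values was not tested. DESeq2 called Pb and also Fe, where 15.9% and 10% of miRNAs were called.

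The share of miR-122-3p in all miR-122 counts, a ratio within the library, was compared between each metal and Ta by a permutation test within months, which passed for 0 of 8 metals (0 with an unadjusted p under 0.05, 131 libraries with at least 1000 miR-122 counts, 100000 resamples, two-sided). With at least 10000 miR-122 counts per library, Al, DU and Fe had unadjusted p under 0.05 and 0 of 8 passed after adjustment (smallest adjusted p = 0.0949 by the permutation test). With shares from pooled counts, Ni and DU did (permutation p = 0.0433 and 0.034, adjusted 0.173 each), and again 0 of 8 passed after adjustment. Mean shares were 0.117% ± 0.333 in Pb (SD, n = 15) and 0.2% ± 0.392 in Ta (n = 14), with 11 of 15 Pb libraries and 4 of 14 Ta libraries at 0 (permutation p = 0.556, Benjamini-Hochberg adjusted 0.823 over 8 metals). The highest mean was that of Cu at 0.318% ± 0.828 (n = 16), which rests on the library with 3.32%, and the lowest that of Ni at 0.0513% ± 0.0757 (n = 11). The permutation p nearest the threshold was that of Al, with 0.052% ± 0.0793 (n = 15) against 0.2% ± 0.392 in Ta (p = 0.171, adjusted 0.716).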

How the data were processed

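Raw counts of mature miRNAs per library were deposited by the authors as 1 table of all libraries, each column matched to a sample by name. Per the labels' protocols, serum RNA was checked on a Bioanalyzer and libraries were made with a Norgen Biotek kit and sequenced on an Illumina NextSeq. Per the submitters' processing notes the genome build was Rnor_6.0. Which aligner and counter made the table, and from which miRBase release, is not given in the sources used here, nor how isomiRs were treated.

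The analysis used edgeR 4.0.16 under R 4.3.3, with limma 3.58.1: filterByExpr (minimum count 10, minimum total 15), TMM factors and quasi-likelihood tests, with 1 mean per metal and month. Comparisons with Ta at 1 month used the libraries of that month. Comparisons averaged over months or between months used all 35 groups and all libraries, and those between months left out Ni. In these, 104 (12 against 1 mo) to 173 (6 against 3 mo) of 320 miRNAs, having groups without counts, gave no usable estimate and were kept in the adjustment but not counted as called. The SE of each edgeR log2 difference is its absolute value divided by the square root of the test's F statistic. The 95% intervals of these differences are normal ones built on this SE. DESeq2 1.42.0 was an alternative, and the procedure was tested on simulated data.

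Strand shares were tested in Python 3.11.15 with NumPy and SciPy. Libraries of 1 group were all distinct: over 204 pairs the lowest chi-square per degree of freedom was 121. Same-numbered libraries did not deviate together, so numbers were not taken as pairs. Sequences are from RefSeq, where both strands matched by name, as did 434 of 471 miRNAs of the table.

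The members, lists and tests were chosen with earlier results of these data known. Named are both strands, the liver list members that could be fitted, miR-191a-5p, and the 5 miRNAs with the highest Spearman rho with miR-122-5p in each of the 2 orders. The members of the other marker lists given by name, miR-10a-5p and miR-10b-5p were named after their values were seen. The additive model and the differences within single metals were added after the data were seen.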

Additional observations from a re-analysis of the deposited data

Results flagged for a closer look

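Within the 33 groups of 4 libraries, 4 groups held a library whose log2 CPM of miR-122-5p stood apart from the other 3 by Dixon's criterion at the 95% level, where chance gives 1.65 groups. Co replicate 1 at 1 mo was lowest with 12.48, against 14.10 to 14.39 in the other 3, and had 12213 counts in all. Pb replicate 2 at 1 mo was highest with 15.04, against 13.15 to 13.35. Co replicate 1 at 3 mo was highest with 17.57, against 14.68 to 15.01, with miR-122-5p at 32.4% of its counts. Pb replicate 3 at 3 mo was highest with 17.50, against 15.09 to 15.37, at 25.6% of 70454 counts.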

How the results depend on the processing

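Over 39 results and 345 alternative values, 281 kept their direction and their side of the threshold (counts within 1.5 times, shares within 1 SD). For miR-122-5p the log2 difference for 12 against 1 mo was called in every setting except in the Ta libraries alone (2.17); without 1 replicate number it was 2.39 to 2.61. In Ta alone the differences for 3 against 1, 6 against 1, 6 against 3, 12 against 3 and 12 against 6 mo were 0.89, 0.89, -0.0083, 1.28 and 1.28, none called, in a fit of fewer libraries. For 6 against 3 mo RLE size factors and DESeq2 each gave -0.11. Without 1 replicate number, 3 against 1 mo ran from 0.74 to 1.33 and 12 against 6 mo from 0.95 to 1.46. Against Ta, Pb at 6 mo turned to 0.47 with RLE and 0.47 with DESeq2. The average of Pb turned to 0.16 (RLE), 0.11 (no filter on low counts), 0.0831 (without libraries under 20000 counts), 0.16 (DESeq2) and 0.0567 (additive model), and ran from -0.16 to 0.56 without 1 replicate number. Without 1 library, Co at 1 mo ran from -0.86 to 0.34, W at 3 mo from -1.02 to 0.94 and Co at 3 mo from -0.45 to 2.90. The causes were not tested.

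For miR-122-3p the single-month calls of 31 were 1 with no filter and 3 with DESeq2, which called 3.74% of all such tests. The averaged calls of 8 were 0 without libraries under 20000 counts, 2 with DESeq2, 0 in the additive model and 0 to 0 without 1 replicate number. The averaged Pb difference was -4.89 without libraries under 20000 counts, -2.06 in the additive model and -5.39 to -2.18 without 1 library. The value of -2.18 came without Ta replicate 2 at 3 mo, where the fit gave no usable estimate. The other fits without 1 library ran from -5.39 to -3.83. For 12 against 1 mo the difference of miR-122-3p was 0.48 in Ta alone. For 12 against 3 mo it was 3.37 with DESeq2, where it was called, -0.86 in Ta alone and 1.22 to 4.92 without 1 replicate number, called without number 1 or 2. For 12 against 6 mo the call was lost with RLE (2.56), without libraries under 20000 counts (2.61), in Ta alone (1.71), in the additive model (1.66) and without number 3 or 4 (range 1.88 to 4.50). The difference in strand share from Ta, in percentage points, was 0.0282 for Co and -0.0615 for Cu from pooled counts, and -0.203 for Cu with at least 10000 miR-122 counts.

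Replicate numbers did not pair libraries: in 2 of 31 comparisons every same-numbered pair correlated over 0.1, and the median correlation was 0.0144. With the number as a replicate block, 12 against 1 mo was 2.54 for miR-122-5p, and the average of Pb against Ta turned to 0.0105. Contrasts with groups at 0 counts limit what miR-122-3p can show.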
